A study of Mus musculus with 14 samples.

Results

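Putative enhancers that overlap protein-coding exons were described in immortalised mouse embryo fibroblasts (iMEF). A region was taken when it shared 50 bp or more with a coding sequence (CDS) feature of a protein-coding transcript and when another putative enhancer lay within 50 kb. Of the 32965 putative enhancers, 1127 met this rule and are called coding-exon enhancers here. They were set against 12598 intronic enhancers, which lay wholly within introns of protein-coding transcripts, shared no base with any annotated exon and also had another enhancer within 50 kb. The rule used positions and no measured signal. The cells carried floxed Ash2l alleles and a Cre-ER recombinase, and a lentiviral construct encoded human ASH2L with an N-terminal FKBP tag. Per the study's methods, the cells were of 1 clone (NG3), and exon 4 of endogenous Ash2l had been excised with 4-hydroxytamoxifen before the experiment, controls included. The fusion protein is degraded after addition of dTAG, a PROTAC. H3K4me3 ChIP-seq was performed in 14 libraries, of which 12 were H3K4me3 libraries and 2 were input libraries. The H3K4me3 libraries were from untreated cells and from cells treated with dTAG for 30 min, 2 h, 4 h, 8 h or 16 h, with 2 libraries each. Input chromatin was sequenced without dTAG and after 16 h of dTAG, with 1 library each. The peaks are a union over these samples and the enhancers are those of control cells, so that no value below compares time points or carries a replicate error. Intervals are 95% confidence intervals that cover counting error only, because regions and genes are not replicates of a culture.

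Enhancers are stretches of accessible chromatin bound by transcription factors that promote transcription from promoters at a distance. Their nucleosomes usually carry H3K4me1 and H3K27ac, whereas H3K4me3 is placed mainly at active promoters by KMT2 complexes, of which ASH2L is a core subunit. Enhancers are found mostly in introns and between genes. Those in coding exons are of interest because the same bases are read both by transcription factors and as codons.

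Short coding-exon enhancers show how the exon sits within such a region. The following 5 are among those with the longest coding overlap, 1 per gene, of the enhancers of the named genes that are at most 300 bp long and hold no untranslated base. They are given 5′ to 3′ on the strand of the gene, in the build GRCm38.p6 (mm10), with coding bases in capitals and intronic bases in lower case.
Col12a1, coding exon 15, chr9:79681333-79681612, minus strand: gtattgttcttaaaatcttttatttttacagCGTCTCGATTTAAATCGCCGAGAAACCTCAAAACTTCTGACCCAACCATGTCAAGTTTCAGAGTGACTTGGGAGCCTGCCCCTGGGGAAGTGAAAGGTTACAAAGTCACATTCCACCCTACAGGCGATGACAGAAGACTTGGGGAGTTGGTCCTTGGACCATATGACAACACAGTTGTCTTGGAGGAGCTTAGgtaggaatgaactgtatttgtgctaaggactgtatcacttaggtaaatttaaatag
Clasp1, coding exon 26, chr1:118543070-118543291, plus strand: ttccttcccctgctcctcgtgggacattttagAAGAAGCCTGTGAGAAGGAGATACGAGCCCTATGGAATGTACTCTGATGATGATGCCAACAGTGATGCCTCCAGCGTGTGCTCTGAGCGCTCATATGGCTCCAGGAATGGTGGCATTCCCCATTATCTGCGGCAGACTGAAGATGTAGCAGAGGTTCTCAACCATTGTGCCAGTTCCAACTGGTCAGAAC
Ash2l, coding exon 11, chr8:25823109-25823308, minus strand: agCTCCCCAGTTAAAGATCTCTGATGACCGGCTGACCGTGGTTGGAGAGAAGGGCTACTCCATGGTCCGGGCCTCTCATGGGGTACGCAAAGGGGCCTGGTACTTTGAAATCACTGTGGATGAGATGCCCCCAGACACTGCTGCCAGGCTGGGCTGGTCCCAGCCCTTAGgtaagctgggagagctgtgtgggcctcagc
Adamts6, coding exon 12, chr13:104397809-104398072, plus strand: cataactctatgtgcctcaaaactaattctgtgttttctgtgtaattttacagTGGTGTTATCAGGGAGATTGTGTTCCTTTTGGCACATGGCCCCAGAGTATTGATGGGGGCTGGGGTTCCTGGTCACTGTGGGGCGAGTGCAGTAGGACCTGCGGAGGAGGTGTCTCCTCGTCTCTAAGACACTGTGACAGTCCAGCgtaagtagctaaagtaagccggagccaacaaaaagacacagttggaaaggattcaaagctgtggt
Idua, coding exon 9, chr5:108681208-108681500, plus strand: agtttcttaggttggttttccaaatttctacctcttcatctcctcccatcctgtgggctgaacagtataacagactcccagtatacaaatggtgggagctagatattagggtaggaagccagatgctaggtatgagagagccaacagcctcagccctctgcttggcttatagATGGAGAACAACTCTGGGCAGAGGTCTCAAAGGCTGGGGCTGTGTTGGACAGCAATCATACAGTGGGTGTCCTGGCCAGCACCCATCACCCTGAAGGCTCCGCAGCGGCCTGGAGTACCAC
Each holds an exon with 1 or both of its splice borders. In Col12a1, which encodes a fibril-associated collagen, 193 of 280 bases were coding. In Clasp1, encoding a protein that binds the plus ends of microtubules, 190 of 222 bases were coding, and the enhancer ended inside the exon. The Adamts6 enhancer, in a gene for a secreted metalloproteinase, held 146 coding bases of 264. The enhancer in Idua, for a lysosomal enzyme that degrades glycosaminoglycans, began in the intron upstream and ended within the exon. The Ash2l region is taken up again at the end.

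For comparison, 3 short intronic enhancers of the same genes are given in the same way.
Col12a1, intronic, chr9:79683379-79683484, minus strand: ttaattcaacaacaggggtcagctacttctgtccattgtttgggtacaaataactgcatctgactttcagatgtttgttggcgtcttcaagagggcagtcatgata
Clasp1, intronic, chr1:118494747-118494860, plus strand: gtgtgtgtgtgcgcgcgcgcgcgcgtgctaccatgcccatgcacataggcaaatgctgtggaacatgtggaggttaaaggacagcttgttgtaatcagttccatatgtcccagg
Adamts6, intronic, chr13:104372939-104373154, plus strand: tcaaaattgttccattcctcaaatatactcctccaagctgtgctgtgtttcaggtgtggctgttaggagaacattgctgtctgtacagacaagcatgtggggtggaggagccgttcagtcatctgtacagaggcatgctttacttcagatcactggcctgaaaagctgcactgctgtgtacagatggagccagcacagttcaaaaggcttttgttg
GC content was 42.5% in the Col12a1 coding-exon enhancer and 41.5% in its intronic one. It was 51.4% and 54.4% in the pair of Clasp1 and 48.5% and 47.2% in the pair of Adamts6. Of these 8 sequences, 0 contained the AP-1 motif TGANTCA on either strand.

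To see how the regions relate to gene structure, the coding exon overlapped was classified in 1 transcript of the host gene, the highest-ranked among those with the overlap, which for some enhancers was an alternative transcript. Coding-exon enhancers lay in 986 genes. A single one was found in 869 genes, 2 in 100 genes, and 3 or more in 17 genes, with a maximum of 7 in Col12a1. An internal coding exon was overlapped by 830 of the 1127 (73.7%, interval 71.0 to 76.1%), the last coding exon by 151 (13.4%), the first by 119 (10.6%) and the only coding exon of a gene by 27 (2.40%). Internal exons made up 83.2% of the coding bases and 88.4% of the coding exons in the principal transcripts of the same host genes, which do not include the first exons of alternative transcripts. First coding exons made up 6.83% of these coding bases and last coding exons 9.03%. Because the enhancers were also classified in alternative transcripts, these shares are given side by side and no difference is drawn from them. Among all protein-coding genes, internal exons held 65.9% of coding bases.

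**Figure D1:**
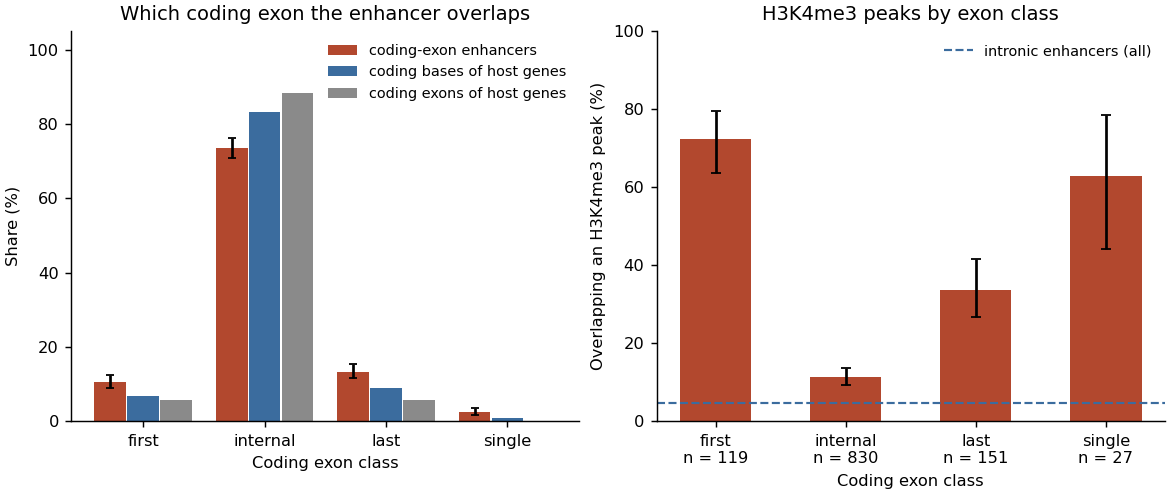
Left, share (%) of coding-exon enhancers in each class of coding exon, with 95% Wilson intervals, beside the share of coding bases and of coding exons in that class in the principal transcripts of the host genes; enhancers were classified also in alternative transcripts. Right, share of each class that overlapped an H3K4me3 peak, with 95% Wilson intervals; the dashed line marks all intronic enhancers (4.66%), and 72.3% of first-exon enhancers lie far above 11.3% of internal ones.

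Most of these regions were not confined to coding sequence. The median enhancer was 25.6% coding (quartiles 14.3 and 44.2%), and the median overlap with 1 coding exon was 127 bp (quartiles 92.0 and 177 bp). The whole exon lay inside the enhancer in 736 cases (65.3%), the enhancer ended within the exon in 349 (31.0%), and it lay wholly inside 1 exon in 42 (3.73%). Several coding exons were touched by 126 enhancers (11.2%), and 281 (24.9%) also held untranslated bases. At the threshold of the rule, 57 of the 1127 shared 50 to 59 bp with a coding exon, and 49 further enhancers with a neighbour shared 40 to 49 bp. Among the 830 enhancers in internal exons, the share with a coding base was 22.5% at the upstream end, was 36.5% at 22.5% of its length and 20.5% at the downstream end.

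Position in the gene and use by transcripts were also described. The enhancer centres lay at a median of 70.3% of the transcript length (interval 68.2 to 72.3%), and the coding exons of the principal transcripts of the host genes at 68.0%. Intronic enhancers lay further upstream, at a median of 45.2%, and 33.0% of them were in the first intron. The position and length of the introns themselves were not set beside these values. Use by transcripts was taken in genes with 2 or more coding transcripts of the basic annotation set. Every such transcript had a coding base within the exon overlapped in 65.2% of cases (interval 61.8 to 68.5%). For all coding exons of the host genes the share was 67.6%. The enhancers were also classified in alternative transcripts, so no difference is drawn from these 2 shares. Internal exons under an enhancer had a median coding length of 135 bp (interval 131 to 141 bp), compared with 126 bp for all internal exons of the hosts. A minimum overlap of 50 bp favours longer exons, so the rule bears on this difference.

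Taken over the genome, enhancer sequence was only slightly richer in coding bases than the chromosomes. Coding bases made up 1.53% of all bases in the 32965 putative enhancers and 1.33% of chromosomes 1 to 19, X and Y. The coding-exon enhancers formed between 2.40% of the enhancers of chromosome X and 5.13% of those of chromosome 7.

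H3K4me3 peaks were next compared, since the enhancer list excludes the vicinity of promoters. At least 1 bp of a peak was shared by 248 of the 1127 coding-exon enhancers (22.0%, interval 19.7 to 24.5%) and by 587 of the 12598 intronic enhancers (4.66%, interval 4.30 to 5.04%). Among all putative enhancers the share was 7.52%. The difference between coding-exon and intronic enhancers was 17.35 percentage points, with an interval of 14.99 to 19.88. The overlap depended on the exon class. A peak was shared by 86 of 119 enhancers in first coding exons (72.3%), 17 of 27 in single coding exons (63.0%), 51 of 151 in last exons (33.8%) and 94 of 830 in internal exons (11.3%). First exons exceeded internal exons by 60.9 points (interval 52.0 to 68.5) and last exons exceeded them by 22.4 points (interval 15.0 to 30.6).

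The peaks under coding-exon enhancers mostly reached the surroundings of an annotated transcript start of the host gene, short or incomplete transcripts included. Of the 248 enhancers with a peak, 173 (69.8%) shared it with the surroundings, within 1 kb, of a transcription start site (TSS) of the host gene. A further 10 (4.03%) shared a peak near a TSS of another gene only, and for 65 (26.2%) the peak was over 1 kb from every annotated TSS. Measured from the enhancer, 111 of the 248 had a base within 1 kb of a TSS of a full-length protein-coding transcript. A further 55 lay over 10 kb from every such TSS. In first exons, 81 of 86 such peaks reached a TSS of the host. In last exons this held for 15 of 51, and 30 of 51 were away from every TSS. The enhancer was wholly inside the peak in 124 of 248 cases.

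Distance to the nearest TSS was therefore considered. Coding-exon enhancers were closer to annotated TSSs, with a median distance of 2859 bp (quartiles 156 and 9879 bp), than intronic enhancers, with 11912 bp. A base within 1 kb of a TSS was found in 406 coding-exon enhancers (36.0%) and in 647 intronic ones (5.14%). The definitions bear on this, since an intronic enhancer shares no base with an annotated exon and thus cannot contain an annotated TSS, whereas a coding-exon enhancer can, and they bear likewise on the peak overlap within 1 kb. Within 1 kb, a peak was shared by 44.3% of coding-exon and 18.1% of intronic enhancers. At 1 to 3 kb the shares were 18.3% and 11.6%, and at 3 to 10 kb they were 30 of 273 and 115 of 3549 (3.24%), a difference of 7.75 points (interval 4.50 to 12.1). Beyond 10 kb of every TSS, 7 of 279 coding-exon enhancers (2.51%) and 190 of 6981 intronic enhancers (2.72%) shared a peak, a difference of -0.21 points with an interval of -1.56 to 2.39. The intervals of the difference lay above 0 in each of the 3 classes within 10 kb and included 0 beyond. This distance limit was chosen after seeing the data.

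The picture was different for TSSs of full-length protein-coding transcripts alone. Beyond 10 kb of these, 55 of 724 coding-exon enhancers (7.60%) and 294 of 10398 intronic enhancers (2.83%) shared a peak, a difference of 4.77 points (interval 3.02 to 6.95). The annotation contains many short or incomplete transcripts that start within genes, and positions do not show which of these start sites are used in the cells.

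**Figure D2:**
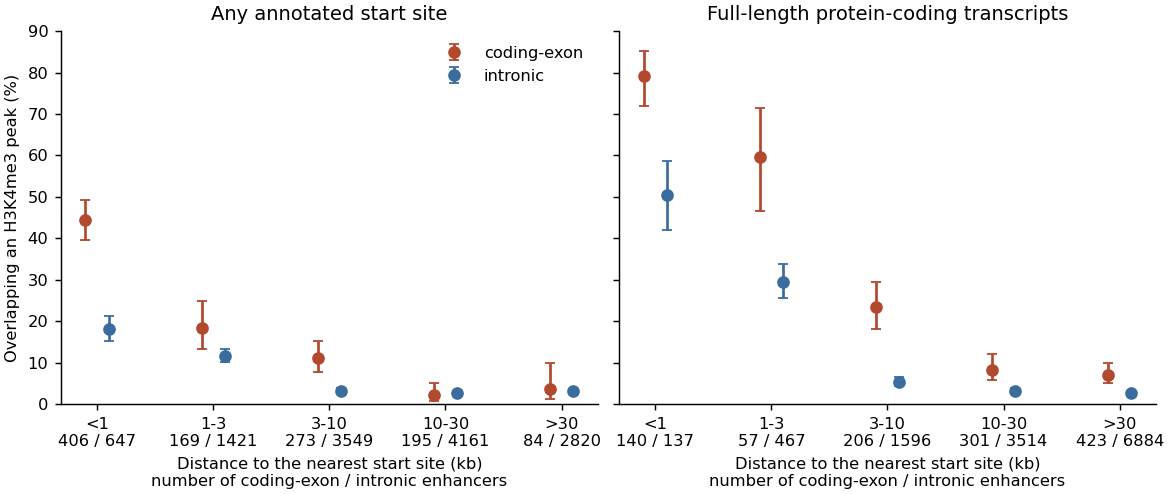
Share (%) of coding-exon and intronic enhancers that overlap an H3K4me3 peak, by distance (kb) to the nearest TSS, with 95% Wilson intervals; the number of enhancers in each class is given below it. With any annotated TSS (left) both kinds lie near 3% beyond 10 kb; with TSSs of full-length protein-coding transcripts (right) coding-exon enhancers stay above intronic ones in every class.

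The 7 coding-exon enhancers beyond 10 kb that shared a peak were in 6 genes, named here after their values were seen. Syne1, encoding nesprin-1, which links the nucleus to the cytoskeleton, had 2 of them. They covered coding exons 54 and 45 of 145 in full, were 67212 and 47318 bp away from the nearest TSS and shared 675 and 699 bp with a peak. The others were in Fam13c, Nr1i2, a gene for a xenobiotic-sensing nuclear receptor, Greb1l, Ccdc68 and Smarcc1, encoding a subunit of SWI/SNF remodelling complexes. The overlap with a peak was 1575 bp in Fam13c, 762 bp in Greb1l, 486 bp in Ccdc68, 392 bp in Smarcc1 and 279 bp in Nr1i2.

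Coding-exon enhancers were also wider and richer in GC and CpG than intronic ones. Their median width was 585 bp (interval 544 to 612 bp, quartiles 357 and 977 bp), against 398 bp for intronic and 405 bp for all enhancers. Median GC content was 51.3% (interval 50.8 to 51.6%), compared with 48.0% and 48.2%. The median ratio of observed to expected CpG was 0.289, compared with 0.193 and 0.195. The rule bears on width, since a wide region is more likely to reach an exon. The definitions also bear on GC and CpG, since coding-exon enhancers must hold coding bases and intronic ones hold no exon base. The part of this in the differences was not tested. Coding-exon enhancers over 10 kb from a TSS had a median width of 457 bp and a median GC content of 48.9%, and intronic enhancers at that distance had 392 bp and 47.8%. Within 1 kb of a TSS the medians were 816 bp and 54.0% for coding-exon enhancers and 408 bp and 48.5% for intronic ones. By exon class, first-exon enhancers were the widest, with a median of 1136 bp, and those in internal exons the narrowest, with 524 bp.

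**Figure D3:**
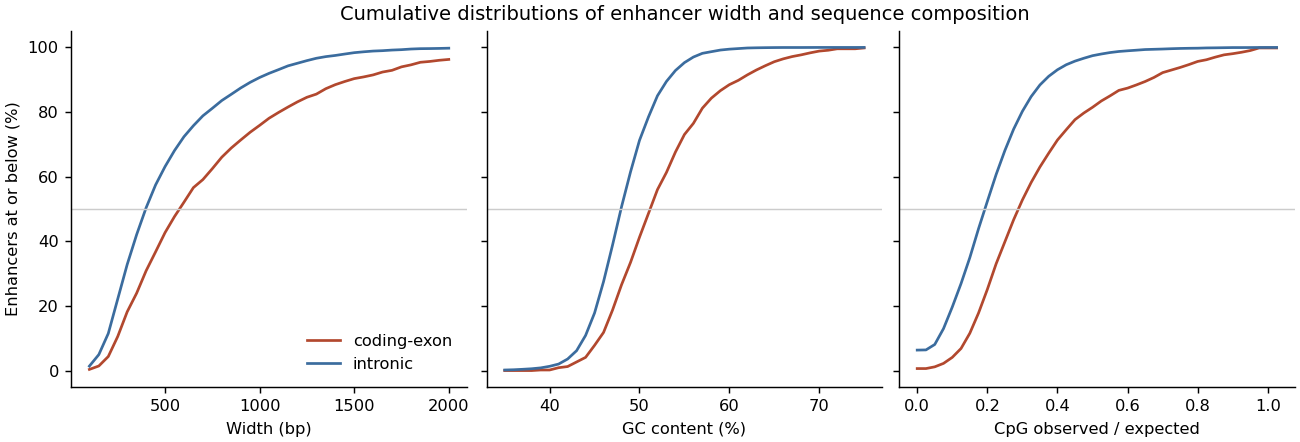
Cumulative share (%) of coding-exon and intronic enhancers at or below a given width (bp), GC content (%) and ratio of observed to expected CpG. The curves of coding-exon enhancers lie to the right in all panels, and the grey line at 50% crosses them at the medians of 585 bp, 51.3% and 0.289.

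The difference in peak overlap was also measured at like width and at like CpG content. At all distances together, the overlap was higher in coding-exon enhancers in each of 5 width classes, from 7.56% against 1.36% up to 250 bp to 45.2% against 11.8% over 900 bp. Beyond 10 kb of every TSS, the differences in these 5 classes were between -2.63 and 0.54 points, and all their intervals included 0. Within 1 kb of a TSS and with a CpG ratio under 0.2, 6.90% of coding-exon and 4.66% of intronic enhancers shared a peak, and the interval of the difference (-2.62 to 9.83 points) included 0. At a ratio of 0.2 to 0.4 the shares were 21.2% and 19.2%. At 0.4 to 0.6 they were 66.2% and 46.3%, a difference of 19.9 points (interval 2.42 to 35.9), and at 0.6 or more they were 94.1% and 85.7%. Between 1 and 10 kb from a TSS, the shares were 2.52% and 1.68% at a ratio under 0.2, 4.52% and 7.47% at 0.2 to 0.4, and 25.8% and 21.8% at 0.4 to 0.6, and the intervals of these 3 differences included 0. Of the enhancers at this distance with a ratio of 0.6 or more, 31 of 36 in coding exons (86.1%) and 22 of 51 in introns (43.1%) shared a peak, a difference of 43.0 points (interval 22.9 to 57.8). CpG-rich regions were also more frequent among coding-exon enhancers, with 142 of 1127 (12.6%) at a ratio of 0.6 or more at any distance, compared with 133 of 12598 intronic ones (1.06%). The CpG classes were chosen after seeing the data.

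**Figure D4:**
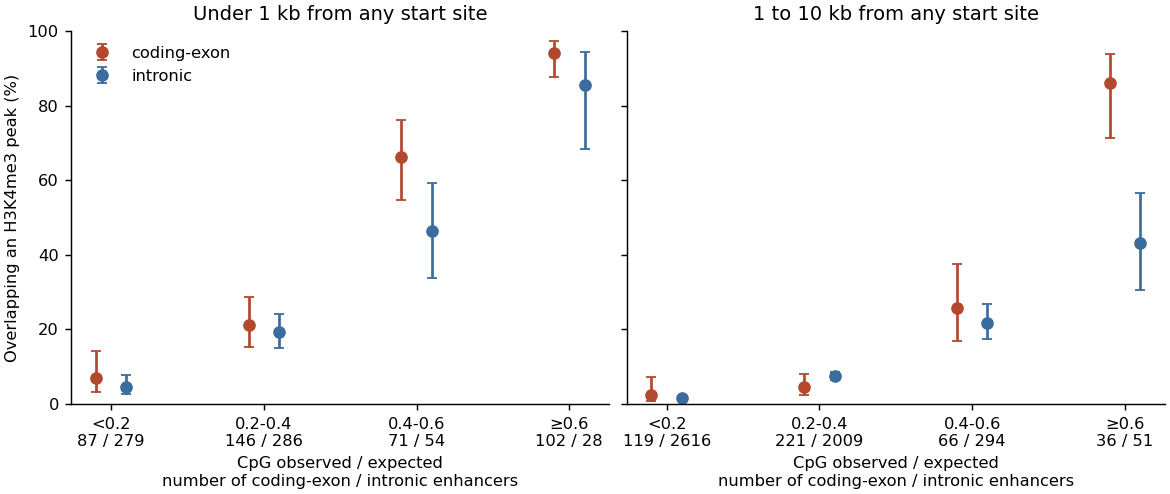
Share (%) of coding-exon and intronic enhancers that overlap an H3K4me3 peak, by the ratio of observed to expected CpG, within 1 kb (left) and at 1 to 10 kb (right) of any annotated TSS, with 95% Wilson intervals; the number of enhancers is given below each class. Shares rise with CpG content in both kinds, and the pair furthest apart is the CpG-rich class at 1 to 10 kb, with 86.1% and 43.1%.

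Transcription factor motifs were counted in the central 200 bp on both strands. This window was not cut at the edges of the region, so it reached outside enhancers shorter than 200 bp. A width of at most 200 bp was found in 4.35% of coding-exon and 11.5% of intronic enhancers. The AP-1 motif TGANTCA, bound by FOS and JUN dimers, was present in 14.0% of coding-exon, 14.4% of intronic and 14.7% of all enhancers. The difference between the first 2 was -0.38 points, with an interval of -2.38 to 1.85. The TEAD motif GGAATG, through which YAP and TAZ reach DNA, was present in 15.0%, 15.8% and 15.7%. The RUNX motif TGTGGT was less frequent in coding-exon enhancers, with 15.2% against 18.5% and 17.4%, and the difference to intronic ones was -3.35 points (interval -5.45 to -1.04). In the whole enhancer, where widths differ, the RUNX motif was instead present in 43.9% of coding-exon and 36.8% of intronic enhancers. The GC box GGGCGG, recognised by SP and KLF proteins, was more frequent, with 9.76% against 4.06% and 5.08%, a difference of 5.70 points (interval 4.06 to 7.60). Beyond 10 kb of every TSS the intervals of all 4 differences included 0, and the GC box was found in 2.15% of coding-exon and 3.90% of intronic enhancers. The motifs were counted independently, so that matches of different motifs may share bases, and a match is a description of the sequence, not a bound site.

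Host genes of coding-exon enhancers had long coding sequences in many exons. Their median coding length was 2013 bp in 13 coding exons, compared with 1674 bp in 11 exons for genes with intronic enhancers only and 1053 bp in 5 exons for all other protein-coding genes. The rule bears on both values, since a gene with more coding bases in more exons is more likely to be taken. The genomic span of the hosts was not longer, with a median of 54517 bp against 66995 bp for genes with intronic enhancers only. Of the 986 hosts, 652 also held an intronic enhancer. A promoter peak, within 1 kb of any TSS of the gene, was found for 823 hosts (83.5%, interval 81.0 to 85.7%), for 86.1% of the 2879 genes with intronic enhancers only and for 53.3% of 18023 other genes. A peak under an enhancer can itself count as the promoter peak of its host. The groups were not matched for span, which had a median of 11386 bp in the other genes. The difference between both kinds of hosts was -2.64 points (interval -5.37 to -0.087), and its interval included 0 under 4 other settings. Under the remaining settings the interval lay below 0. For enhancers at 1 kb or more from every TSS the difference was -7.94 points (interval -11.5 to -4.7). In the 652 genes with both kinds of enhancer, 119 of 768 coding-exon enhancers (15.5%) and 135 of 3152 intronic enhancers (4.28%) shared a peak.

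The 12 genes with the most coding-exon enhancers held 43 of them, 34 in internal exons, and all 12 genes had a promoter peak. A peak was shared by 2 of the 34 in internal exons, both in Syne1, and by 7 of the 8 in first exons. Col12a1 (chromosome 9, 79598991 to 79718720) held 7 in coding exons 15 to 59, with widths of 280 to 701 bp, coding overlaps of 72 to 193 bp and 0 peaks. Fbn1 (chromosome 2, 125300594 to 125507993), for the microfibril protein fibrillin-1, held 4, in coding exons 13, 22, 46 and 53. Again 0 of these overlapped a peak. The nearest peak was 33001 to 105968 bp away from the enhancers of Col12a1 and 69825 to 120165 bp from those of Fbn1.

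The 7 first-exon enhancers with a peak were in Mast4, Pde4d, Macf1 and Idua. Idua held 1 in its first coding exon that shared 1031 bp with a peak and 2 in internal exons without a peak. Mast4, for a microtubule-associated kinase, held 4 coding-exon enhancers. Its 2 in internal exons shared no peak, and its 2 in first coding exons of alternative transcripts shared 1605 and 1151 bp. Pde4d, for a cAMP phosphodiesterase, held 3, all in first coding exons of different transcripts, of which 2 lay wholly inside a peak. Macf1, for a protein that crosslinks microtubules and actin, held 1 in an internal exon without a peak and 2 in first exons with peak overlaps of 779 and 2041 bp. Fgfr2, for a fibroblast growth factor receptor, held 3 coding-exon enhancers. It held 47 intronic ones over its whole annotated span (chromosome 7, 130162451 to 133123350), which reaches far beyond the transcript used to place the exons. The coding-exon enhancers of Fgfr2 covered coding exons 6 and 16 in full and 128 of the 191 bases of coding exon 12. They were at least 61081 bp from a peak.

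**Figure D5:**
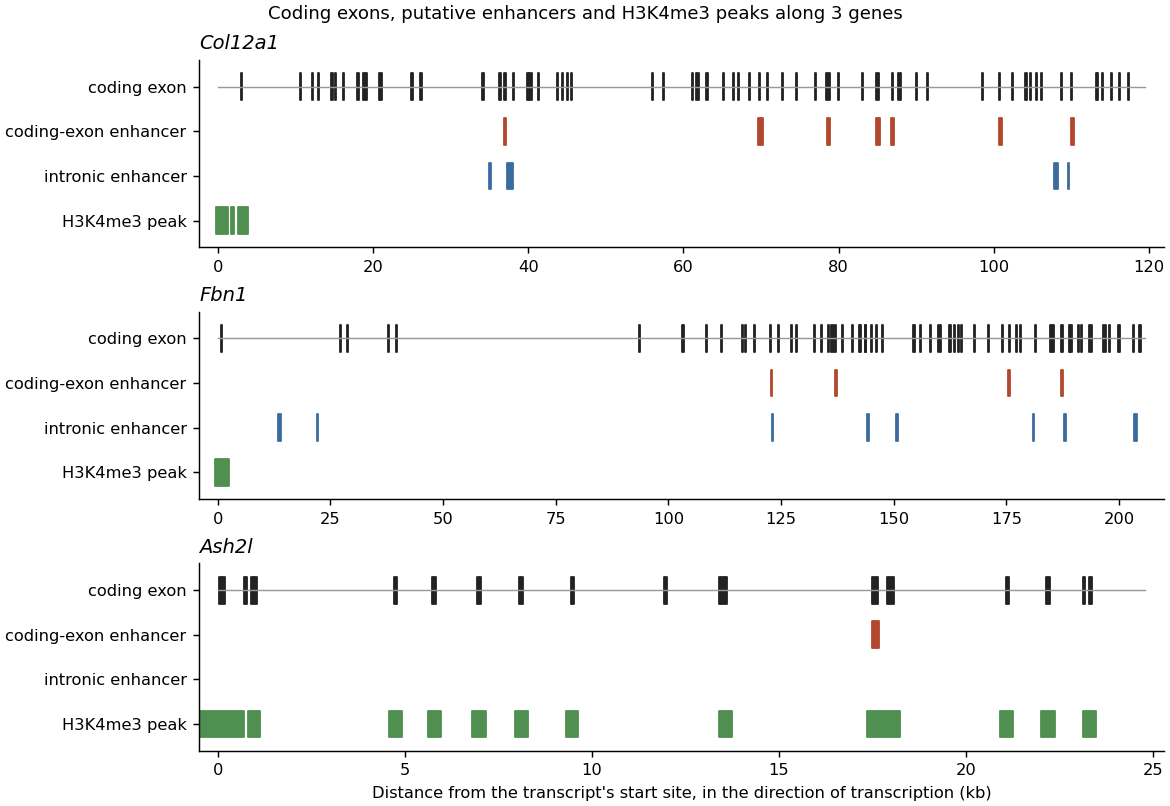
Coding exons of the principal transcript, coding-exon enhancers, intronic enhancers and H3K4me3 peaks along Col12a1, Fbn1 and Ash2l, as distance (kb) from the start of the transcript; features narrower than the line are drawn at a minimum width. Peaks lie at the 5′ end of Col12a1 and Fbn1, away from their 7 and 4 coding-exon enhancers, and over 14 of the 16 coding exons of Ash2l.

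The 8 enhancers with the longest overlap with a coding exon shared 1471 to 2112 bp with 1 exon, 4 of them in genes with a single coding exon, and all 8 shared a peak. Their CpG ratios were 0.694 to 0.948. Fzd2 and Fzd7 encode WNT receptors, Foxc2 is a forkhead transcription factor, and Irf2bpl is a transcriptional coregulator. In Fzd2 the enhancer covered all 1710 coding bases and in Foxc2 all 1482, and both enhancers were wholly inside a peak. In Rab11fip3 and in Pcdhgc3, a clustered protocadherin, the first coding exon was overlapped by 1596 and 2112 bp. Tchh, encoding trichohyalin of the hair follicle, held 2 enhancers of 1650 and 1723 bp that were 100% coding, both in its last exon of 4659 coding bases and both wholly inside peaks. It was the only one of these genes without a promoter peak. Over all 42 wholly coding enhancers, 16 (38.1%) shared a peak.

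The 8 enhancers with the longest overlap with a peak were chosen by that overlap, which is given as a description. They shared 2492 bp (Maml3, a Notch coactivator) to 3195 bp (Six4, a homeobox factor) with a peak. In order after Six4 they were in Ptch1, the Hedgehog receptor, Tnfrsf12a, the TWEAK receptor, Irf2bpl, Shb, Ctdsp2 and Klf13. All 8 had a base within 1 kb of an annotated TSS, 5 were in first coding exons, and their widths were 2492 to 3495 bp.

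Lists of genes chosen by function were then counted. Coding-exon enhancers were found in 17 of 61 genes of the extracellular matrix (27.9%), 17 of 60 of the actin cytoskeleton and adhesion (28.3%), 16 of 60 signalling receptors and kinases (26.7%) and 16 of 66 transcription factors and coregulators (24.2%). The share over all 21888 protein-coding genes was 4.50%. Intronic enhancers were also frequent in these lists. In the same order, they were found in 38 of 61, 36 of 60, 34 of 60 and 38 of 66 genes. The share of all protein-coding genes with an intronic enhancer was 16.1%, so the higher shares were not particular to coding-exon enhancers. The lists hold longer genes, with median coding lengths of 1545 to 4392 bp against 1158 bp, and they were not tested against genes of like length. Beside the 22.0% of all coding-exon enhancers that shared a peak, 1 of 27 did in the extracellular matrix list, in Thbs1. In the actin and adhesion list it was 5 of 28, among the signalling genes 4 of 20, and among the transcription factors 9 of 19. Examples with the longest coding overlap were Col12a1, Col15a1 and Thbs1 for the matrix, Macf1 and Synpo for actin and adhesion, Fzd2, Fzd7 and Notch3 for signalling, and Foxc2, Klf4 and Foxo1 for transcription. In Klf4 the enhancer shared 874 bp with an internal coding exon and lay wholly inside a peak, and in Foxo1 it held all 621 coding bases of the first coding exon. The Notch3 enhancer, 516 bp of it in the last coding exon, shared no peak.

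As a check of the cell type, promoter peaks were counted for marker genes. All 11 fibroblast markers, among them Col1a1, Pdgfrb and Prrx1, had a promoter peak, and of 9 markers of neurons, T cells, erythroid cells and hepatocytes only Syn1 had one.

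Of 15 subunits of H3K4 methyltransferase complexes and H3K4 demethylases, 3 held a coding-exon enhancer. In Kmt2a, for the methyltransferase MLL1, it covered all 174 coding bases of coding exon 16, and in Kdm1a, for the demethylase LSD1, all 60 of coding exon 3. Neither shared a peak. Of 10 genes named by the study, Ash2l, Zfp503 and Nrf1 held 1 each (30.0%, interval 10.8 to 60.3%). The Zfp503 enhancer of 1826 bp was wholly inside a peak, and the Nrf1 enhancer just met the rule with 50 bp of coding exon 4 and lay 52520 bp from a peak.

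The remaining enhancer of this kind was in Ash2l itself. It was 200 bp wide, at chr8:25823109-25823308, and held all 168 coding bases of coding exon 11, as printed above, with 2 intronic bases upstream and 30 downstream. It was the only putative enhancer within Ash2l, and it lay wholly inside an H3K4me3 peak of 884 bp that also covered coding exon 12. In all, 12 peaks lay over coding exons of Ash2l, more than in any other of the 8787 genes with such a peak. They covered 14 of the 16 coding exons, and 10 of the 12 lay over 1 coding exon each. Their median width was 357 bp, and they covered 20.6% of the 24792 bp of the transcript. One of these peaks, of 348 bp from 25835855 to 25836202, covered coding exon 4 of this transcript, and exon 4 is the exon that the study's methods name as excised from the endogenous gene, although the numbering used there was not compared. Thbs1 was next, with 11 peaks over 20 of 21 coding exons, but there the peaks covered 58.1% of the transcript. Only 3 genes had 5 or more peaks over coding exons. The cells carry a human ASH2L coding sequence on the lentiviral construct, and its part in the peaks and in the enhancer at Ash2l was not tested.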

How the data were processed

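H3K4me3 ChIP-seq had been performed in iMEF cells, and 2 lists of positions were used. Per the study's methods, the authors aligned reads to mm10 (GRCm38.p6) with BWA, filtered them with SAMtools, merged replicates with Picard and called narrow peaks with MACS. The deposited peak and enhancer lists used here hold positions (chromosome, start, end) and no other unit, no score and 0 columns of values per sample. The lists therefore give no depth, for which the study's methods name a planned minimum of raw reads per ChIP sample. The planned count test of changes with time (edgeR) could not be run. The authors defined enhancers by H3K4me1, H3K27ac and ATAC signal in control cells, away from TSSs. Peak starts were taken to count from 0 and enhancer starts from 1, and positions are printed counting from 1.

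Transcripts were from GENCODE M21, whereas the study used a later release. The principal transcript was the first by APPRIS rank, then completeness, then coding length, among those with the overlap. A TSS was the first base of any transcript, or of a full-length protein-coding one with the basic tag. Overlap, distance and base composition were computed in Python 3.11.15 with NumPy 2.4.6 and pandas 2.3.3. The ratio of observed to expected CpG is the CpG count times length, divided by the product of C and G counts. Shares carry Wilson and differences Newcombe intervals, medians intervals from order statistics, and no p-value was computed. On simulated data the overlap and distance functions differed from brute force in 0 of 1800 queries, and the interval of a difference held the true value in 95.3% of draws.

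Named were the 12 genes with the most coding-exon enhancers, the genes of the 8 longest coding overlaps and of the 8 longest peak overlaps, and 3 genes per list with the longest coding overlap. Sequences were read from the reference genome, and those on chromosome 18 are not printed. A gene that this rule names is not reported here. The rule for the regions, the gene lists and the alternatives were chosen with earlier results of these data known. Alternatives were other overlaps, neighbour distances, transcript sets, chromosomes, TSS distances and peak definitions.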

Additional observations from a re-analysis of the deposited data

How the results depend on the processing

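Of 118 alternative values, 79 stayed within the interval of the reported value, within 1.5 times a reported count, or on the same side of 0. The number of coding-exon enhancers was 229 when 50% or more of the bases had to be coding, 721 at 1 kb or more from every TSS and 552 at 3 kb or more. The share with a peak was then 27.1%, 9.43% and 6.70%. It was 26.7% with a minimum overlap of 100 bp, 17.2% with peaks of at least 500 bp, 2.51% at 10 kb or more from every TSS and 7.60% at 10 kb or more from every full-length coding TSS. The difference in peak overlap to intronic enhancers reversed only beyond 10 kb of every TSS, at -0.21 points. It fell from 17.35 points to 5.50 and 3.81 at 1 and 3 kb or more from every TSS, 4.77 at 10 kb or more from full-length coding TSSs, 6.77 at widths of 300 to 600 bp and 11.2 in the same genes, with intervals above 0, and was 15.2 to 22.4 points under the other alternatives. The share in internal exons was 70.1% with a minimum overlap of 100 bp and 62.9% for regions mostly coding, and 79.2% and 81.2% at 1 and 3 kb or more from TSSs. Under the last 3 of these settings the median width was 313, 498 and 502 bp. The median GC content was 51.7% at 100 bp and 52.8%, 50.0% and 49.8% under the same 3. Host genes with a promoter peak made up 79.2%, 78.7% and 79.8% under these, 79.6% with peaks of at least 500 bp and 78.4% with a peak over the TSS itself.

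The difference in promoter peaks between host genes was no longer apart from 0 without the neighbour rule (-1.34 points), with a neighbour at a shorter distance (-1.98), on autosomes only (-2.44) and without chromosome 15 (-2.50). It was -7.94 and -7.33 points at 1 and 3 kb or more from TSSs, -7.18 for regions mostly coding and -4.58 with a peak over the TSS itself. Under the other settings it was -2.69 to -3.67 points, and all these intervals lay below 0. The difference in the AP-1 motif changed sign to 0.17 points at a minimum overlap of 1 bp, 0.71 with transcripts of support level 1, 0.031 without chromosome 15, 1.18 and 1.26 at 1 and 3 kb or more from TSSs, 0.13 at widths of 300 to 600 bp and 7.97 in the whole enhancer, and it was -6.98 for regions mostly coding. The interval included 0 for the main value and for each of these alternatives, except in the whole enhancer and for regions mostly coding. In these it was 5.08 to 10.9 and -9.78 to -2.79 points. The whole-enhancer value compares regions of unequal width, and for the other changes the cause was not tested. The alternatives at 10 kb, in the same genes and at fixed widths were chosen after seeing the data. No paired analysis was possible because regions only, without a value for any sample, are given in the lists used here.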

Other observations

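The enhancer list excludes the surroundings of known promoters, and the positions show how this acts on wide regions. The centre of 174 of the 32965 enhancers (0.528%) lay within 1 kb of a TSS of curated RefSeq transcripts, whereas 531 (1.61%) had any base within 1 kb. The number of enhancers rose from 10 with a centre 900 to 1000 bp from such a TSS to 133 with a centre at 1000 to 1100 bp. Among coding-exon enhancers, 12 (1.06%) had the centre and 90 (7.99%) a base within 1 kb, and 18 (1.60%) contained a RefSeq TSS. Among intronic enhancers these numbers were 13 (0.103%), 84 (0.667%) and 1 (0.0079%).

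Coding-exon enhancers with untranslated bases shared a peak in 138 of 281 cases (49.1%), and those without in 110 of 846 (13.0%). In internal exons alone, a peak was shared by 68 of 259 enhancers within 1 kb of a TSS (26.3%) and by 5 of 237 beyond 10 kb (2.11%), a difference of 24.2 points (interval 18.5 to 30.0). The next enhancer was at a median of 6155 bp from a coding-exon enhancer and 5054 bp from an intronic one.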
